A study of Homo sapiens with 7 samples.

Results

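AlbuMAX, a lipid-rich preparation of bovine serum albumin, was compared with lysophosphatidic acid (LPA) given together with albumin, in cells of the established human embryonic stem cell line H1. The arrays were chosen by their treatment labels, and they are 2 of the 7 arrays measured, 1 for each medium. All cells grew on matrigel in the chemically defined stem cell medium E8, which holds no albumin, were passaged with 5 μM of the ROCK inhibitor Y27632, which was withdrawn after 24 hours, and were collected after 2 days of treatment. The AlbuMAX cells received E8 with 1.6% AlbuMAX, and the LPA + Albumin cells received E8 with 1 μM LPA (18:1) and 1% albumin. The other 5 media were plain E8, E8 with 1% albumin, E8 with 1% CDL (a chemically defined lipid concentrate), E8 with hCDL (a homemade lipid mixture, 0.1x, although the labels disagree on its dose) and E8 with 1 μM LPA. The amount of supplement differs between the media compared, so what the lipid load of AlbuMAX does and what its dose does cannot be told apart. Of 7982 named genes measured in the series, 7276 were above background (detection p-value under 0.01) on the higher of the arrays compared, and 6673 on both. With 1 array a medium there is no test, no replicate error and no p-value. The differences below compare these arrays, and the scatter between the quieter pairs of arrays is given as a yardstick.

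AlbuMAX carries fatty acids, phospholipids and sterols bound to albumin. Cells sense their lipids through the SREBP transcription factors, which are held in the endoplasmic reticulum by SCAP and the INSIG proteins while sterols are plentiful. When sterols or unsaturated fatty acids run short, SREBP is cut, enters the nucleus and raises the genes of cholesterol synthesis, fatty acid synthesis and desaturation, together with NF-Y, a factor that binds CCAAT boxes. LPA is a signalling phospholipid that acts through G-protein-coupled receptors, of which several couple to RhoA, actin assembly and the transcription factors SRF and YAP. Albumin binds LPA and carries it in serum.

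The promoters of 4 genes are shown whose measured level was lowest in AlbuMAX, where FADS2 and MVK were not above background. They are shown because the CCAAT box and the sterol regulatory element are the landmarks of SREBP-responsive promoters. The sequences are from RefSeq (GRCh38.p14), from upstream of a listed transcription start to just past it, on the gene's own strand. They lie at chr20:34874739-34875038 for ACSS2, chr11:61816154-61816453 for FADS2, chr7:155297628-155297927 for INSIG1 and chr12:109573544-109573843 for MVK, all on the plus strand. For ACSS2 and FADS2 this is 1 of 2 listed starts. Capitals mark CCAAT on either strand (ATTGG when it lies on the other strand), and in INSIG1 also CACNCCAC on either strand, a form of the sterol regulatory element, which did not overlap a CCAAT.
ACSS2: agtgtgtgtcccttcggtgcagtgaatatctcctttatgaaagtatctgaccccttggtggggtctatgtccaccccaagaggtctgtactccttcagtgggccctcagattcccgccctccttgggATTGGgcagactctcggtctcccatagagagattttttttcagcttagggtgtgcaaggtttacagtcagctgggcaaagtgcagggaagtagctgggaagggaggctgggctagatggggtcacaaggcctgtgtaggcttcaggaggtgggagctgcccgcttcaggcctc
FADS2: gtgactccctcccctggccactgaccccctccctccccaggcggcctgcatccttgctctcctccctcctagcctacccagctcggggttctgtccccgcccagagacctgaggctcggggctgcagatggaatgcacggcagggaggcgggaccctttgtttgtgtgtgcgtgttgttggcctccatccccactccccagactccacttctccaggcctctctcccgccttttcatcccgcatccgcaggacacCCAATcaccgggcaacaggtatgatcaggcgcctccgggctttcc
INSIG1: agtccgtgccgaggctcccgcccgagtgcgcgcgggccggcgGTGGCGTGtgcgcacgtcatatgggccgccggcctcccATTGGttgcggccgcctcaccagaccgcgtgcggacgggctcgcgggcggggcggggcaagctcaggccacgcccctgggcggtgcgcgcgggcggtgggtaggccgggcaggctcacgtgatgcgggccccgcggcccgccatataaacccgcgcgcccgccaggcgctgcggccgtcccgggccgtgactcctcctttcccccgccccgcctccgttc
MVK: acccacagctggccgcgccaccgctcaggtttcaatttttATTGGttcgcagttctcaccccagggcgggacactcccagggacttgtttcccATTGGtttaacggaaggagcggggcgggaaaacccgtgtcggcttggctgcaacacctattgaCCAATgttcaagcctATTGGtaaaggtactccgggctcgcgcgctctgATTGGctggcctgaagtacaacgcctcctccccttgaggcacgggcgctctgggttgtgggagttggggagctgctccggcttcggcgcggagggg
The MVK window holds 5 CCAAT boxes, and the windows of ACSS2, FADS2 and INSIG1 hold 1 each. Of the 31 lipid synthesis genes measured, 28 had a promoter listed, and 21 of these (75%) held at least 1 CCAAT in some listed promoter, as did 42.9% of the 5875 measured genes with a promoter. At least 3 CCAAT were found for 7 of the 28 (25%), against 5.84% of the measured genes. CACNCCAC was found for 5 of the 28 (17.9%) and for 7.78% of the measured genes. Over all 35116 listed promoters, 34.6% held CCAAT and 5.87% held CACNCCAC. A match of letters describes the window and does not show binding. The 31 genes were listed with SREBP targets among them, so these shares describe the list and not the levels measured.

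The arrays of AlbuMAX and LPA + Albumin were among the most alike of the series. A total of 387 genes (5.32%) were at least 1.5-fold apart, of which 160 (2.2%) were higher in AlbuMAX and 227 (3.12%) were lower. At 2-fold, 19 genes (0.261%) were higher and 24 (0.33%) were lower. Only 2 of the 21 pairs of arrays had fewer genes 1.5-fold apart. The 6 pairs among E8, Albumin, CDL and hCDL differed in 354 to 488 genes, with a standard deviation of the log2 differences of 0.264 to 0.303, and the standard deviation between AlbuMAX and LPA + Albumin was 0.283. AlbuMAX differed from LPA alone in 459 genes and from E8, CDL, Albumin and hCDL in 1036 to 1128. The count of genes apart thus lay within the range seen among the 4 media without LPA or AlbuMAX.

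**Figure D1:**
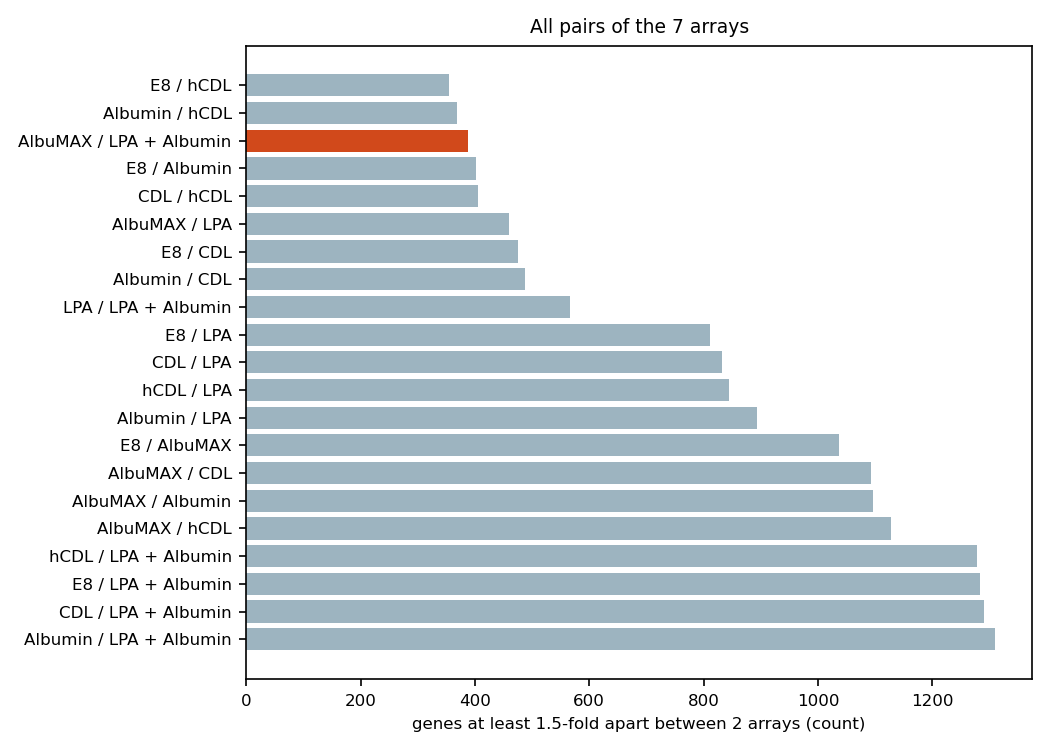
Number of genes at least 1.5-fold apart (horizontal axis, count) for each of the 21 pairs of arrays (bars), counted among genes above background on the higher array of each pair. AlbuMAX against LPA + Albumin (orange bar) differed in 387 genes, and only 2 pairs differed in fewer.

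Most genes past 1.5-fold were dim. The dimmest of 3 equal classes of genes held 143 of the 160 higher and 173 of the 227 lower genes, and the brightest class held 5 and 17. The split between higher and lower also moved with the processing. With the background correction and quantile normalization used here, 41.3% of the genes apart were higher in AlbuMAX. Cyclic loess in place of quantile normalization gave 38.8%. Leaving out the background correction gave 8 higher and 28 lower genes (22.2% higher), with the submitters' processed values 8 and 27 (22.9%), and with a background offset of 50 23 and 54 (29.9%). Centring the arrays on their medians gave 113 and 402 (21.9%), and moved the median of all genes to -0.14, so that values from that scaling are read against this shift. Of the 28 genes lower without background correction, 6 were lipid synthesis genes, as were 0.426% of the genes measured. The 6 were ACAT2, ACSS2, FASN, HMGCS1, INSIG1 and LSS. Another 13 of the 28 were at least 2-fold higher in LPA than in E8, as were 2.08% of the genes compared there.

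Genes of cholesterol synthesis, fatty acid synthesis and desaturation, and sterol sensing were lower in AlbuMAX than in LPA + Albumin. Of 59 listed genes, 31 were measured, and all 31 were above background on the higher array. Among them 28 were lower in AlbuMAX by any amount, against 50.2% of all genes, 9 were at least 1.5-fold lower, against 3.12% (8 of the 31 when a dim level was raised to the lowest signal above background), and 0 were at least 1.5-fold higher, against 2.2%. The median difference was -0.43 on the log2 scale, against 0.00 over all genes. AlbuMAX was the lowest of the 7 arrays in 20 of the 31, against 14.9% of all genes. In bulk samples, fewer cells of a type and less RNA per cell cannot be told apart.

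The difference lay on the AlbuMAX side. AlbuMAX was below each of the other 6 arrays in the 31 genes, with median differences of -0.30 (hCDL and LPA) to -0.43 (LPA + Albumin), 24 to 28 of the genes lower and 7 to 9 at least 1.5-fold lower. Over all genes AlbuMAX was at least 1.5-fold lower in 217 of 7206 (against LPA) to 503 of 7443 (against hCDL). Against LPA + Albumin 50.2% of all genes were lower by any amount. In the 15 pairs of arrays without AlbuMAX the median difference of the 31 genes was between -0.07 and 0.07. At most 3 of the 31 were at least 1.5-fold apart in either direction. Differences that share the AlbuMAX array are not independent of each other.

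**Figure D2:**
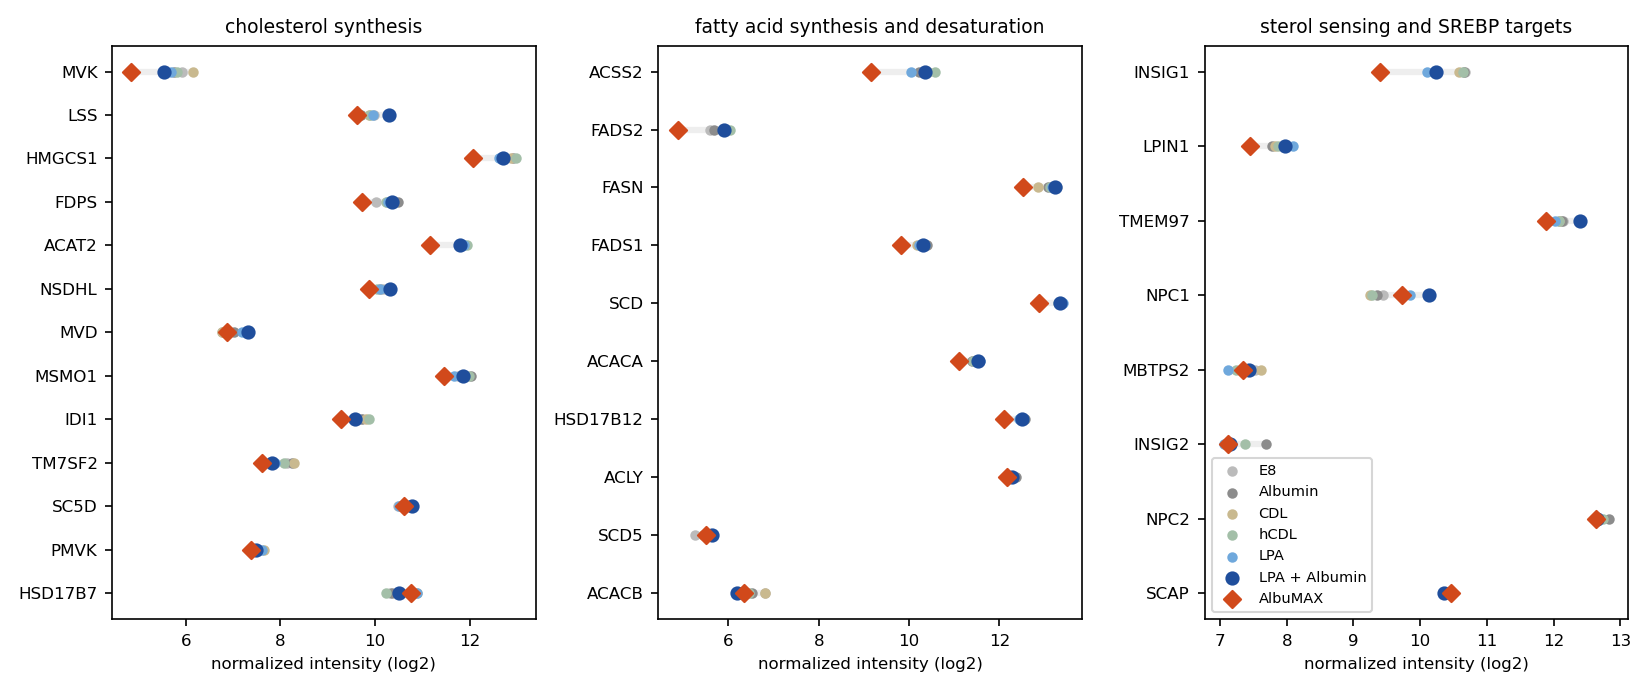
Normalized intensity (log2, horizontal axis) of the 31 lipid synthesis genes on all 7 arrays, in 3 panels by list; each point is 1 array. AlbuMAX (orange diamonds) is the lowest point in 20 of the 31 rows, and LPA + Albumin (large blue points) lies among the other media in most.

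In the cholesterol pathway, 13 of 20 listed genes were measured, 12 were lower in AlbuMAX and 5 of these at least 1.5-fold (median difference -0.43). HMGCS1, which makes HMG-CoA at the entry to the pathway, had a log2 level of 12.07 in AlbuMAX, 12.72 in LPA + Albumin and between 12.61 (LPA) and 12.99 (hCDL) in the other 5 media, a difference of -0.64. ACAT2, the cytosolic thiolase that supplies its substrate, stood at 11.17 in AlbuMAX, 11.79 in LPA + Albumin and between 11.79 (E8) and 11.94 (hCDL) elsewhere, a difference of -0.62. For both genes the 6 media other than AlbuMAX lay close together and AlbuMAX lay below them. FDPS, which makes farnesyl diphosphate, had 9.72 in AlbuMAX, 10.35 in LPA + Albumin and between 10.03 (E8) and 10.49 (Albumin) elsewhere, a difference of -0.63. LSS, which closes the sterol rings, had 9.63 in AlbuMAX and 10.29 in LPA + Albumin, a difference of -0.66. For LSS the LPA + Albumin array was the highest of the 7, since the other 5 media lay between 9.71 (Albumin) and 9.97 (E8), so this difference came from both arrays.

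MVK, mevalonate kinase, was not above background in AlbuMAX (measured level 4.85) and stood at 5.54 in LPA + Albumin, at least 1.18-fold apart. The other 5 media lay between 5.69 (LPA) and 6.15 (CDL). AlbuMAX was thus the only medium without a signal above background for MVK. The further members were less far apart, with differences of -0.45 for NSDHL, -0.43 for MVD, -0.40 for MSMO1, -0.30 for IDI1, -0.21 for TM7SF2, -0.17 for SC5D and -0.11 for PMVK. For MVD, SC5D and PMVK AlbuMAX was not the lowest array. HSD17B7, a sterol reductase, was the exception in direction, with a difference of 0.25.

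ACSS2, which makes acetyl-CoA from acetate in the cytosol, was the lipid gene furthest apart. Its log2 level was 9.16 in AlbuMAX, 10.36 in LPA + Albumin and between 10.04 (LPA) and 10.57 (hCDL) in the other 5 media, which makes AlbuMAX 2.30-fold lower than LPA + Albumin (log2 difference -1.20). A second probe for ACSS2 gave -1.40, and the difference ran from -1.33 to -1.08 over 10 ways of processing (the one used and 9 alternatives). Acetyl-CoA from this enzyme feeds both fatty acid and cholesterol synthesis.

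Among the fatty acid genes, 10 of 22 listed were measured, 9 were lower in AlbuMAX, 3 of them at least 1.5-fold, and the median difference was -0.46. FADS2, which takes the first desaturation step toward long polyunsaturated fatty acids, was not above background in AlbuMAX (measured level 4.87) and stood at 5.91 in LPA + Albumin, at least 1.52-fold apart. The other 5 media had FADS2 between 5.58 (E8) and 6.03 (hCDL), all above background. As a dim gene FADS2 also depended on the background correction, and its difference was -0.35 without one. FADS1, the desaturase that follows it in the same pathway, had 9.82 in AlbuMAX, 10.32 in LPA + Albumin and between 10.18 (CDL) and 10.40 (Albumin) elsewhere, a difference of -0.49.

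FASN, fatty acid synthase, had 12.52 in AlbuMAX, 13.23 in LPA + Albumin and between 12.86 (CDL) and 13.29 (E8) in the other media, a difference of -0.71. SCD, the main desaturase of saturated fatty acids, had 12.87 in AlbuMAX, 13.36 in LPA + Albumin and between 13.31 (hCDL) and 13.40 (LPA) elsewhere, a difference of -0.48. Both are bright probes, and in both AlbuMAX lay below all 6 other arrays. ACACA, acetyl-CoA carboxylase, gave -0.43 and HSD17B12, an elongation enzyme, -0.41. ACLY, ATP citrate lyase, gave -0.12 with the probe used and -0.45 with a second probe. SCD5 gave -0.12 and ACACB, the carboxylase isoform at mitochondria, 0.16.

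The sensing genes were less uniform. Of 17 listed genes 8 were measured, 7 were lower in AlbuMAX, 1 at least 1.5-fold, and the median difference was -0.25. INSIG1, which retains SCAP and SREBP in the endoplasmic reticulum and is itself raised by SREBP, had 9.40 in AlbuMAX, 10.24 in LPA + Albumin and between 10.11 (LPA) and 10.67 (E8) elsewhere, 1.78-fold lower in AlbuMAX (log2 difference -0.84). Its second probe was above background in LPA + Albumin and not in AlbuMAX. Measured against the other media, LPA and LPA + Albumin both lay below E8, Albumin, CDL and hCDL for INSIG1, so AlbuMAX lay further below those 4 media than below LPA + Albumin. LPIN1, a phosphatidate phosphatase, gave -0.53, and TMEM97, a sterol-regulated membrane protein, -0.51 (0.07 with a second probe). NPC1, which exports cholesterol from lysosomes, gave -0.41, but its level of 9.72 in AlbuMAX was above E8, Albumin, CDL and hCDL (9.25 to 9.44). INSIG2, SCAP, MBTPS2 and NPC2 lay between -0.08 and 0.10.

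Further probes of the same genes mostly gave the same sign: of 10 further probes above background on the higher array, for 9 genes, 8 were lower in AlbuMAX and 2 higher. Among the 29 genes above background on both arrays, 26 were lower, 7 of them at least 1.5-fold. Over the 10 ways of processing, the median of the 31 genes ran from -0.57 to -0.37, and from -0.43 to -0.37 once the shift of all genes was taken off.

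Genes set apart on the AlbuMAX array from all 6 others were few. With every level below background set to at least its array's lowest detected signal, AlbuMAX was at least 1.5-fold below every other array in 5 genes, all above background on the 7 arrays. The same count was 0 (E8) to 6 (LPA + Albumin) for the other arrays. The 5 genes were ACAT2, ACSS2 and INSIG1 of the lipid lists and, named after their values were seen, PFKFB2, a regulator of glycolysis, and PLA2G3. PLA2G3, a secreted phospholipase, had 7.76 in AlbuMAX, 8.49 in LPA + Albumin and between 8.92 (LPA) and 9.26 (CDL) elsewhere. PCYT1B, which makes CDP-choline for phosphatidylcholine synthesis, was not above background in AlbuMAX (measured level 4.77) and had 5.56 in LPA + Albumin, at least 1.19-fold apart.

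Genes that handle fatty acids showed no common direction (13 genes above background of 29 listed, 7 higher and 6 lower, median difference 0.05). Taken against the median of all genes, their median was below 0 in 1 of the 10 ways of processing. AlbuMAX was nonetheless the highest of the 7 arrays in 6 of the 13, against 12.6% of all genes. PLIN2, the coat protein of lipid droplets, had 10.56 in AlbuMAX, 9.97 in LPA + Albumin and between 10.07 (Albumin) and 10.42 (hCDL) elsewhere, just at 1.5-fold higher in AlbuMAX (log2 difference 0.59, and 0.58 with a second probe). CDL and hCDL, the lipid mixtures, were next highest for PLIN2. HILPDA, which inhibits lipolysis at droplets, was 0.40 higher in AlbuMAX, FABP5, a fatty acid carrier, 0.31 (probes disagreed, at -0.10 and 0.38) and ETFDH, which passes electrons from fatty acid oxidation, 0.29. ACSL1, which activates long-chain fatty acids, was lower, at 6.67 in AlbuMAX, 7.20 in LPA + Albumin and between 7.06 (LPA) and 7.31 (hCDL) elsewhere, a difference of -0.53. ANGPTL4, counted among the 6 lower, gave -0.29 with the probe used. Its second probe, above background in AlbuMAX alone, gave 1.38, so the direction of ANGPTL4 rests on the probe. LIPG, a lipase that cuts lipoprotein phospholipids, was among the 15 genes furthest below LPA + Albumin, with 7.41 in AlbuMAX, 8.35 in LPA + Albumin and between 7.97 (hCDL) and 8.34 (Albumin) elsewhere, a difference of -0.94. The 6 measured targets of the sterol receptor LXR had a median difference of -0.06, and ABCA1, which exports cholesterol, gave -0.26. The 21 genes of phospholipid and LPA metabolism had a median of 0.01, whose sign turned under 3 of the 10 ways of processing.

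Genes that LPA raised were lower in AlbuMAX than in LPA + Albumin. The genes were taken as those at least 2-fold higher on the LPA array than on the E8 array, 150 of 7197 (2.08%), a choice that used neither array of the comparison. Of the 150, 126 were lower in AlbuMAX than in LPA + Albumin, with a median difference of -0.31. Of the 135 above background on the higher array, 117 (86.7%) were lower, against 50.2% of all genes. At least 1.5-fold lower were 31 (23%, against 3.12%), and 1 was at least 1.5-fold higher. The 45 genes (0.625%) at least 2-fold lower in LPA than in E8 had a median difference of 0.10 over the 24 above background, of which 10 were lower in AlbuMAX.

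On the AlbuMAX array these genes nonetheless stood far above the media without LPA. The median level of the 150 genes was 7.54 in AlbuMAX, 7.20 in LPA and 8.06 in LPA + Albumin, and it lay between 5.34 (E8) and 5.60 (CDL) in the other 4 media. AlbuMAX lay above all of those 4 media in 123 of the 150 genes, and LPA + Albumin in 131. In 99 of the 150 AlbuMAX lay between LPA and LPA + Albumin, in 12 it was above both and in 39 below both. The positions against LPA and against E8 are descriptions, since those arrays chose the genes. Across all 7276 genes, which are not independent replicates, the difference of AlbuMAX from LPA + Albumin correlated with LPA minus E8 at r = -0.21 (Spearman rho = -0.18). The same correlation with Albumin, CDL or hCDL minus E8 lay between -0.03 and 0.01.

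**Figure D3:**
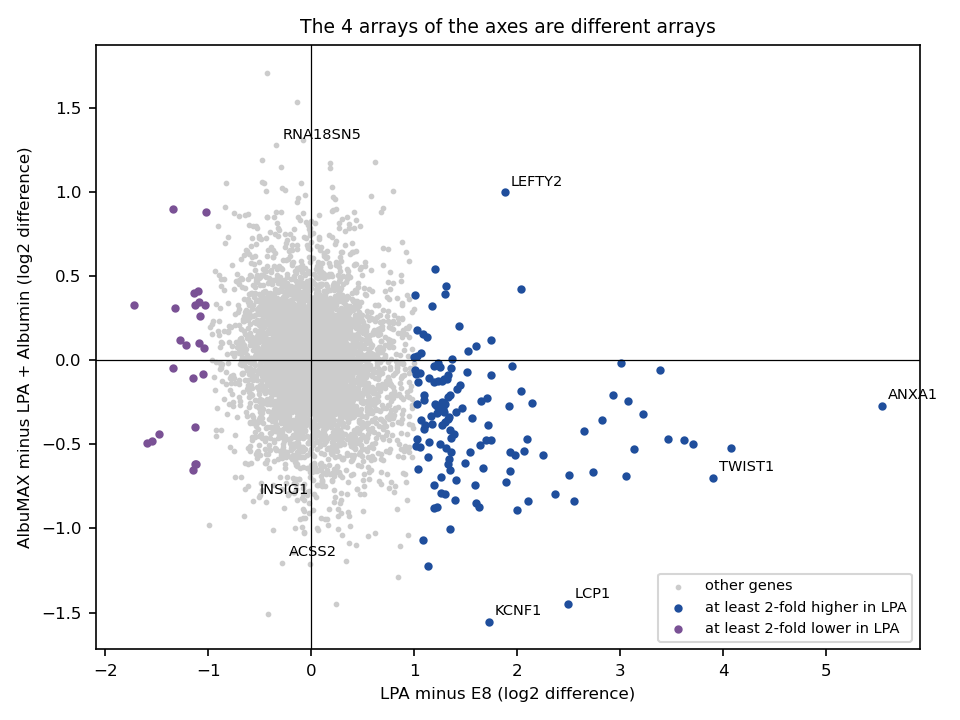
Log2 difference of AlbuMAX minus LPA + Albumin (vertical axis) against LPA minus E8 (horizontal axis), each point 1 of 7276 genes; levels below background are plotted as measured. Of the genes raised by LPA (blue) most lie below 0, and LEFTY2 lies at 1.00.

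Among the genes that LPA raised most, the gap between AlbuMAX and LPA + Albumin was small beside the gap of both to the media without LPA. ANXA1, a phospholipid-binding annexin, had 12.28 in AlbuMAX, 12.55 in LPA + Albumin and 11.67 in LPA, while the other 4 media lay between 4.66 (hCDL) and 6.13 (E8). TWIST1, a mesenchymal transcription factor, had 9.37, 10.06 and 8.66 in the same order, with the other 4 media between 4.46 (Albumin) and 4.76 (E8), not above background, a difference of AlbuMAX from LPA + Albumin of -0.70. CD44, the hyaluronan receptor, gave -0.69 and NPPB, a natriuretic peptide, -0.53. The muscle actins ACTA1, ACTC1 and ACTG2, whose probes may share sequence (not tested), gave -0.50, -0.48 and -0.47. For GARIN1B (-0.06) and MYOF, a membrane repair protein (-0.02), AlbuMAX and LPA + Albumin stood at about the same level.

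Lists of genes that RhoA, SRF and YAP signalling are known to drive had medians below 0, as did p53 targets. SRF and actin cytoskeleton genes had a median difference of -0.20 (10 of 15 lower, 2 at least 1.5-fold), YAP and TEAD targets -0.30 (6 of 7 lower, 2 at least 1.5-fold), immediate early genes -0.22 (11 of 13 lower, 2 at least 1.5-fold) and p53 targets -0.24 (13 of 14 lower, 1 at least 1.5-fold). Over all genes 50.2% were lower and 3.12% at least 1.5-fold lower, and a count of 1 or 2 in lists this short says little about a list. All 4 medians stayed below 0 under the 10 ways of processing. CNN1, calponin, had 8.06 in AlbuMAX and 8.90 in LPA + Albumin, a difference of -0.84, with LPA at 7.67 and the other 4 media between 5.16 (CDL) and 6.08 (Albumin). ANKRD1, a YAP target, gave -0.80, F3, tissue factor, -0.78 (-0.39 with a second probe), KLF6, an early zinc-finger factor, -0.89, and GDF15, a stress cytokine, -0.67. For CNN1, ANKRD1, F3 and GDF15 AlbuMAX lay between LPA and LPA + Albumin. KLF4 went the other way, at 7.24 in AlbuMAX and 6.69 in LPA + Albumin, a difference of 0.56, but 0.12 with a second probe.

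Extracellular matrix genes had a median of -0.32 (9 of 11 lower, 2 at least 1.5-fold, against 50.2% and 3.12% of all genes). IGFBP5, a secreted binding protein of insulin-like growth factors, had 10.70 in AlbuMAX, 11.53 in LPA + Albumin and 9.61 in LPA, with the other 4 media between 6.69 (CDL) and 7.06 (E8). LOX, which cross-links collagen, gave -0.65. Markers of fibroblasts and mesenchyme moved with these genes: 6 of 7 were lower in AlbuMAX (median -0.21), and relative to each gene's median over the 7 arrays their median level was 0.43 in AlbuMAX, 0.93 in LPA + Albumin, 0.21 in LPA and between -0.23 and 0.00 in the other 4 media. Their part in the difference was not tested. Of the defining fibroblast markers named here, THY1 and PDGFRB were above background on both arrays, and LUM, DCN and POSTN on neither.

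The 5 LPA receptors named here differed in direction. LPAR2 had 7.28 in AlbuMAX, 8.11 in LPA + Albumin and between 7.57 (LPA) and 7.93 (hCDL) elsewhere, 1.78-fold lower in AlbuMAX (log2 difference -0.83). AlbuMAX was thus the lowest array for LPAR2 and LPA + Albumin the highest. LPAR3 gave 0.54, LPAR4 0.10 and LPAR1 0.05, and LPAR6 was above background in AlbuMAX alone (at least 1.02-fold apart).

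LEFTY2 went against the trend of the LPA response. LEFTY2, a secreted inhibitor of Nodal, had 11.32 in AlbuMAX, 10.31 in LPA + Albumin and 9.41 in LPA, with the other 4 media between 6.88 (hCDL) and 7.53 (E8), so AlbuMAX was 2.00-fold above LPA + Albumin. It was the only gene among the 135 at least 1.5-fold higher in AlbuMAX. LEFTY1, its neighbour in function, had 11.06 in AlbuMAX, 10.52 in LPA + Albumin and 10.50 in LPA, a difference of 0.54. CER1, another secreted Nodal inhibitor, had 6.45, 7.11 and 6.48 in the same order, a difference of -0.66, so the Nodal inhibitors did not share a direction. NODAL itself gave 0.08. AFP, alpha-fetoprotein, named after its values were seen, had 9.17 in AlbuMAX, 8.75 in LPA + Albumin and 8.74 in LPA, and was highest in AlbuMAX as well. GREM1, a BMP antagonist, was lower in AlbuMAX, at 7.49 against 8.49 in LPA + Albumin, and MSX1, a BMP target, higher, at 6.21 against 5.54.

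Of the 15 genes furthest below LPA + Albumin, 4 (KCNF1, LCP1, CDKN2B and GREM1) were also at least 2-fold higher in LPA than in E8, as were 2.08% of the genes compared there. KCNF1, a modifier subunit of potassium channels, had 6.06 in AlbuMAX, 7.62 in LPA + Albumin and 6.16 in LPA, with the other 4 media between 4.44 (E8) and 5.14 (Albumin), not above background, 2.94-fold lower in AlbuMAX. LCP1, the actin bundler L-plastin, had 9.59 in AlbuMAX, 11.04 in LPA + Albumin and 9.63 in LPA, with the other 4 media between 6.52 (CDL) and 7.14 (E8), 2.73-fold lower. For KCNF1, LCP1, SFN (-1.29) and CDKN2B (-1.22, and -1.41 with a second probe) AlbuMAX stood close to the LPA array, and LPA + Albumin stood above both. At their smallest over the ways of processing, the differences were -0.87 for KCNF1, -0.84 for SFN and -0.67 for CDKN2B, while LCP1 stayed between -1.61 and -1.35. SFN encodes stratifin, a p53-induced cell cycle regulator, and CDKN2B a cyclin-dependent kinase inhibitor that TGF-beta raises. The other genes of the 15 furthest below were ACSS2, TMEM154 (-1.19, but -0.40 with a second probe), CALHM5 (at least 2.24-fold), PRUNE2 (-1.10), AHNAK2 (-1.04), APOBEC3B (-1.03), KLF5 (-1.02), CCDC92 (-1.01), GREM1, ANP32A (-0.98) and LIPG. Over the ways of processing the smallest differences of KLF5 (-0.41), CCDC92 (-0.40), APOBEC3B (-0.51), CALHM5 (-0.55) and ANP32A (-0.57) were within 1.5-fold.

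**Figure D4:**
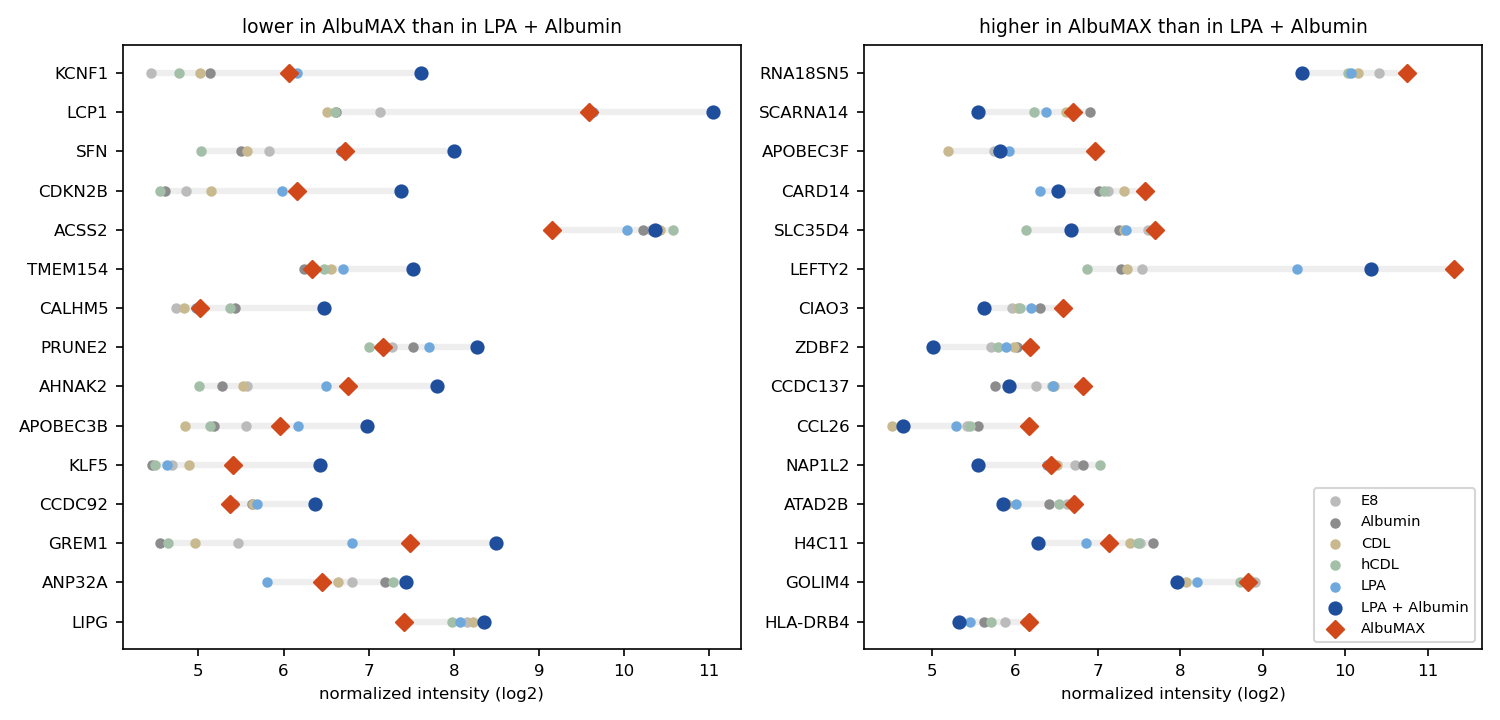
Normalized intensity (log2, horizontal axis) on all 7 arrays of the 15 genes furthest lower (left) and furthest higher (right) in AlbuMAX than in LPA + Albumin; each point is 1 array. On the left LPA + Albumin is the highest point in most rows, and ACSS2 and LIPG are rows where AlbuMAX lies below all other points.

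The 15 genes furthest above LPA + Albumin shared less. RNA18SN5, a small-subunit ribosomal RNA gene, had 10.75 in AlbuMAX, 9.47 in LPA + Albumin and between 9.46 (Albumin) and 10.41 (E8) elsewhere, a difference of 1.28. SCARNA14, a small Cajal body RNA, gave 1.15, CARD14 1.05, SLC35D4 1.01, CIAO3 0.96, CCDC137 0.89, NAP1L2 0.88, ATAD2B 0.87, H4C11 0.86, GOLIM4 0.86 (0.20 and 1.00 with further probes) and HLA-DRB4 0.85 (0.10 with a second probe). RNA18SN5 and SCARNA14 encode RNAs without a poly(A) tail, and whether RNA quality or labelling had a part in their values was not tested. ZDBF2 was at least 1.86-fold and CCL26 at least 1.85-fold higher. APOBEC3F gave 1.14 with the probe used, while its 2 other probes were not above background in AlbuMAX. Of these 15, RNA18SN5, LEFTY2, SLC35D4, CARD14 and GOLIM4 were still at least 1.5-fold higher when no background correction was made. LEFTY2 was the only gene of these 15 that LPA had raised at least 2-fold. Of all 160 genes higher in AlbuMAX, AlbuMAX was the highest array in 93, against 12.6% of all genes. LPA + Albumin was the lowest in 79, against 22%. Of the 227 lower genes, LPA + Albumin was the highest array in 156, against 21.3% of all genes. AlbuMAX was the lowest in 97, against 14.9%. These genes were chosen by the difference between the same arrays, which favours such positions.

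Core pluripotency markers stood at similar levels on both arrays. POU5F1 had 10.37 in AlbuMAX and 10.29 in LPA + Albumin, NANOG 10.07 and 9.98, and LIN28A and PODXL each gave -0.11. The 9 core pluripotency genes had a median difference of 0.08 with 0 at least 1.5-fold apart, the 17 genes of G2 and mitosis 0.08 and the 11 of DNA replication 0.04, again with 0 at least 1.5-fold apart. These medians lay above the median of all genes under the 10 ways of processing, by at most 0.09. Of a wider set, the naive pluripotency list had 2 measured genes, KLF5 (-1.02) and NLRP7 (-0.21). Of the defining markers of mesendoderm (1 named here), neuroectoderm (1) and trophoblast (4), 0 were above background on either array. The wider lists of those lineages did hold genes above background on both arrays, among them NES (11.15 in AlbuMAX and 11.59 in LPA + Albumin), TUBB3 (12.21 and 12.36), KRT8 (11.03 on both), HHEX (7.10 and 6.73) and FOXH1 (5.84 and 6.08).

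In the list of metallothioneins, which bind zinc, and zinc genes, 6 of 7 were higher in AlbuMAX (median 0.30), with 0 at least 1.5-fold apart. Over all genes 3613 of 7276 were higher. MT1G had 8.62 in AlbuMAX, 8.17 in LPA + Albumin and 9.54 in Albumin, while the 4 media without albumin lay between 11.29 (CDL) and 11.51 (LPA). MT1X gave 0.46 and MT1H 0.47 with the probe used but 0.08 over the mean of its probes, and MT2A was lower, at -0.32. The family shares sequence between members, and whether the probes tell them apart was not tested. Chaperones (median 0.00), amino acid stress genes (0.00) and antioxidant genes (0.06) gave no gene at least 1.5-fold apart with the probes used, except TRIB3, a stress pseudokinase, at -0.61. A second probe of the chaperonin gene HSPE1 gave -0.71, against 0.14 with the probe used. For the chaperone gene HSP90AA1 a dim further probe, above background in AlbuMAX alone, gave 0.60, against 0.14 with the probe used. Hypoxia and glycolysis genes had a median of -0.16 and interferon genes -0.14, with 0 at least 1.5-fold apart in either. TXNIP, an inhibitor of thioredoxin and of glucose uptake, had 9.47 in AlbuMAX, 9.21 in LPA + Albumin and 8.91 in Albumin, against 6.11 (CDL) to 7.97 (LPA) in the 4 media without albumin, so the difference of 0.26 was small beside the gap to those media.

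**Figure D5:**
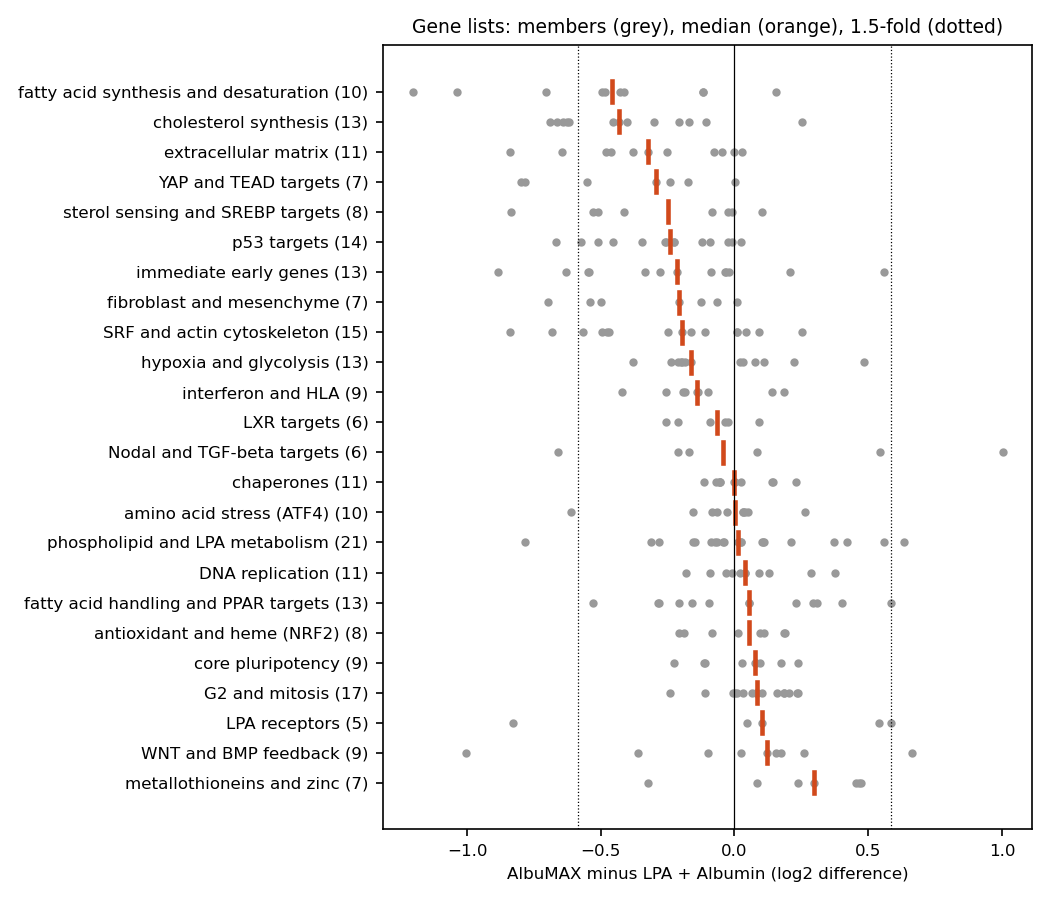
Log2 difference of AlbuMAX minus LPA + Albumin (horizontal axis) for each gene (grey points) of the lists with at least 5 measured genes (number in brackets), with the list median (orange bar) and 1.5-fold (dotted lines). Fatty acid synthesis (-0.46) and cholesterol synthesis (-0.43) have the lowest medians, and metallothioneins and zinc genes (0.30) the highest.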

How the data were processed

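Total RNA of 7 H1 cultures, 1 per medium, was measured on Illumina bead arrays, per the labels. For each of 33866 probes the main deposited table gives an unnormalized intensity on every array and the detection p-value that goes with it, per the file headers; the software was not given in the sources used here. A second deposited table holds the submitters' processed intensity values, found to be linear, quantile normalized and without background subtraction (medians 112.4 to 112.5). Probes above background numbered 11976 in AlbuMAX and 12046 in LPA + Albumin, between the extremes of 11722 (E8) and 12632 (hCDL).

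Intensities were background-corrected (normexp, negative controls inferred from the detection p-value, offset 16), quantile normalized over the 7 arrays and log2-transformed (limma 3.58.1, neqc, R 4.3.3). The probe with the highest mean represented a gene. Of the probes, 19221 had 1 symbol in the platform annotation, 3 had several and 14642 are unnamed here, among them those of SOX2, DNMT3B and LPAR5; 19194 symbols matched current ones by Entrez identifier. Where the dimmer side was not above background, "at least N-fold" is taken from that array's lowest signal above background, or from the gene's own signal where that is higher.

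Genes at 1.5-fold and 2-fold were counted without a test. The steps were also run on simulated data, in which only probes well above background were changed, 50 each by 0.25, 0.5, 2 and 4-fold. All 50 were recovered at each fold. The simulated noise was smaller than the scatter between these arrays, so the run cannot show how dim genes behave. Genes were named by rule: the 15 furthest in each direction, ACSS2, FADS2, INSIG1, POU5F1, NANOG and the LPA receptors, up to 5 per direction and list, and up to 8 in each direction changed by LPA; further list members are given as examples. The comparison, its members and the 32 lists were chosen with earlier results of these data known. The alternatives were other background corrections and normalizations, filters on dim probes, probe averages and the submitters' values.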

Additional observations from a re-analysis of the deposited data

How the results depend on the processing

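No named gene past 1.5-fold changed sign under the 9 alternatives tried. List medians near 0 did, among them those of fatty acid handling (-0.08 to 0.06), phospholipid metabolism (-0.16 to 0.06), Nodal targets (-0.16 to 0.01) and WNT and BMP feedback (-0.003 to 0.12). Taken against the median of all genes, the ranges were -0.07 to 0.06, -0.02 to 0.06, -0.04 to 0.01 and -0.004 to 0.14 in the same order. The counts depended on the treatment of dim probes. Genes at least 1.5-fold higher and lower in AlbuMAX numbered 160 and 227; without background correction 8 and 28, with the submitters' values 8 and 27, with an offset of 50 23 and 54, and with a signal above background on both arrays 55 and 109. Centring on the median gave 402 lower genes. At 2-fold, 19 and 24 became 1 and 2 without background correction and with the submitters' values, 1 and 4 with an offset of 50, 9 and 38 with median centring, and 6 and 12 above background on both arrays. An alternative chosen after seeing the data, which raised a dim side to the lowest signal above background, gave 71 and 123. The filters and the raised dim side remove or shrink dim genes by construction; for the other counts the cause was not tested. The share of LPA-raised genes lower in AlbuMAX was 86.7%, and 84% without a filter on dim probes. It was 92.6% with median centring, which moved the median of all genes to -0.14. Of 235 named genes, 41 moved by over 0.28 on the log2 scale without background correction, 41 with the submitters' values, 22 with an offset of 50 and 9 with the mean of probes. No paired analysis was possible because each medium has 1 array. With 1 array a medium there is no replicate error, and dim genes scatter more: the standard deviation of the differences was 0.395 in the dimmest of 3 equal classes of genes and 0.175 in the brightest.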

Other observations

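Few genes stood above all other arrays in AlbuMAX. With every level below background set to at least its array's lowest detected signal, AlbuMAX was at least 1.5-fold above every other array in 7 genes, against 52 for LPA + Albumin and 0 to 9 for the other media. ABHD12B, named after its values were seen, was 1 of 2 of the 7 that were above background on all 7 arrays, beside LEFTY2. Its log2 level was 8.66 in AlbuMAX, 8.02 in LPA + Albumin, 7.24 in LPA and between 6.25 (hCDL) and 6.84 (E8) in the other 4 media.

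Probes without a single gene name were left out of the gene counts. Of 14645 such probes, 3335 were above background on the higher array, 192 (5.76%) were at least 1.5-fold higher in AlbuMAX and 162 (4.86%) lower. The probes furthest higher were ILMN_3239610, at 9.69 in AlbuMAX and 8.02 in LPA + Albumin, and ILMN_1703337, at 9.33 and 7.96. The probes furthest lower were ILMN_2390310, at 5.76 and 6.92, and ILMN_3268697, at 6.96 and 8.05.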
